A study of Mus musculus with 16 samples.

Results

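The genes of MHC class I antigen presentation and of the immunoproteasome were followed in 4 populations of sorted mouse cells. The 10 genes, taken by name, are B2m, H2-K1, H2-D1, Nlrc5, Tap1, Tap2, Tapbp, Psmb8, Psmb9 and Psmb10. They are 10 of the 50600 genes in the deposited count table, and all 10 passed the filter on low counts that kept 16345 genes for testing. Each population gave 4 bulk RNA-seq libraries, all of male mice aged 13 to 14 weeks. Brain CD11c cells were CD11c-eYFP+ cells of the ischemic hemisphere of Tg(Itgax-Venus)1Mnz mice, in which the promoter of Itgax, the gene of CD11c, drives a yellow fluorescent protein. Spleen CD11c cells were the CD11c-eYFP+ cells of the spleen of the same line, and the sources used here do not say whether these donors had ischemia. Ischemic microglia were CX3CR1+ cells of the ischemic hemisphere of CX3CR1CreERT2:Rosa26-tdT mice, and control microglia were the CX3CR1+ cells of control brain of that line. An inducible Cre under the Cx3cr1 promoter switches on a red reporter in that line, so that the mouse line changes together with the population wherever CD11c cells are set against microglia. Cells were sorted on the reporters alone, without antibodies. The labels do not state the time after ischemia, the treatment that activated Cre or the MHC haplotype of the lines. Nothing in the labels says that each library came from its own animal, so the p-values describe library-to-library spread, which may be technical. H2-K1, H2-D1 and H2-Q counts may depend on how reads of an unstated haplotype map to the reference, and an effect of this on their differences between the lines was not tested.

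Class I molecules show pieces of the proteins made inside a cell to CD8 T cells. The proteasome cuts proteins into peptides, and in the immunoproteasome the catalytic subunits encoded by Psmb8, Psmb9 and Psmb10 stand in for those encoded by Psmb5, Psmb6 and Psmb7. Tap1 and Tap2 form the pump that carries peptides into the endoplasmic reticulum, Tapbp (tapasin) holds the empty class I molecule at that pump, and the molecule itself is a heavy chain, here H2-K1 or H2-D1, paired with beta-2 microglobulin, the product of B2m. Nlrc5 is the transactivator of class I genes, and interferons are known to raise the whole set, in microglia as in other cells.

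Depth was 31569304 to 48245164 counts per library, and the lowest count of any of these genes in a library was 625, for Nlrc5 in control microglia. Microglia markers were highest in the microglia groups and dendritic cell markers in the CD11c groups, but the CD11c groups also held markers of other cells. The 10 microglia markers summed to 10592 to 11432 CPM (a gene's counts relative to the size of its library, corrected by TMM factors) in brain CD11c cells and 225 to 319 CPM in spleen CD11c cells. They summed to 23989 to 33956 CPM in ischemic microglia and 32623 to 39269 CPM in control microglia. The 10 markers of conventional dendritic cells summed to 1003 to 2278 CPM in brain CD11c cells and 962 to 1967 CPM in spleen CD11c cells, against 57.4 to 118 CPM in ischemic microglia and 63.6 to 93.3 CPM in control microglia. Spleen CD11c libraries also held RNA of B cell markers, with all 7 found and a sum of 2532 to 3288 CPM, against 12.2 to 21.7 CPM over all other libraries. That sum is above the sum of their dendritic cell markers. Monocyte markers summed to 1113 to 1749 CPM in brain CD11c cells and 703 to 806 CPM in spleen CD11c cells, against 147 to 204 CPM in ischemic microglia and 127 to 247 CPM in control microglia. On the third principal component of all tested genes, which held 5.1% of the variance, brain CD11c replicates 1 and 2 stood at -18.7 and -22.9 and replicates 3 and 4 at 49.7 and 65.3. The titles of the 4 libraries differ in form along the same line. The labels do not say what the forms stand for, and where the call of 1 of the 10 genes differed between these pairs, the value of each pair is given. In bulk RNA, fewer cells of a type and less RNA per cell cannot be told apart.

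Of the 10 genes, 7 lie on chromosome 17, in the region of the major histocompatibility complex (coordinates of GENCODE M21 on GRCm38). Tapbp lies at chr17:33915899-33929292 on the plus strand, H2-K1 at chr17:33996017-34000347 on the minus strand and H2-D1 at chr17:35262730-35267499 on the plus strand. Psmb9 (chr17:34181987-34187764, minus strand), Tap1 (chr17:34187553-34197225, plus strand), Psmb8 (chr17:34197721-34201454, plus strand) and Tap2 (chr17:34203527-34216321, plus strand) follow each other within 34.3 kb. B2m lies apart at chr2:122147686-122153083 on the plus strand. Nlrc5 (chr8:94434356-94527272, plus strand) and Psmb10 (chr8:105935735-105938444, minus strand) share chromosome 8. The Psmb9 and Tap1 gene models overlap by 212 bases on opposite strands, and the strand setting of the counting is not given in the sources used here, so the split of reads over that stretch is uncertain. H2-K1 and H2-D1 are related in sequence to each other and to the H2-Q genes, and reads that fit several of them make the counts of these genes uncertain. How alike their transcripts are was not measured here.

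Promoter windows were at hand for 8 of the 10 genes, from RefSeq on GRCm38.p6, each with 250 bases before and 50 bases after the annotated start, while Nlrc5 and Tap2 had no window. The RefSeq starts can differ from the GENCODE M21 gene ends given above. The windows of H2-D1, Psmb8 and Tapbp lie wholly inside those gene spans, so positions relative to the start are not strictly comparable between genes. The windows of B2m, H2-K1, H2-D1 and Tap1 are shown because these genes changed most among those with a window in ischemic microglia, and that of Psmb8 because it is the immunoproteasome gene that rose with them. Capitals mark the motifs searched on both strands: the CCAAT box (CCAAT), the CRE core (TGACG), the core of the interferon-stimulated response element (GAAA, any 2 bases, GAAA), the GAS motif (TTCNNNGAA) and the NF-kB motif. Adjacent NF-kB matches in H2-K1 and H2-D1 overlap and print as a single run of capitals.
B2m, chr2:122147437-122147736, plus strand: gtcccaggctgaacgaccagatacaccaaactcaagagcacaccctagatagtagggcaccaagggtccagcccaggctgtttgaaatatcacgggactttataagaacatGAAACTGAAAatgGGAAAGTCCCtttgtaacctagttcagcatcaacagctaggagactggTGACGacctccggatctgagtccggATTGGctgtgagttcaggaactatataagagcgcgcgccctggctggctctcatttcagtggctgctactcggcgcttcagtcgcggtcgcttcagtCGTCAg
H2-K1, chr17:34000298-34000597, minus strand: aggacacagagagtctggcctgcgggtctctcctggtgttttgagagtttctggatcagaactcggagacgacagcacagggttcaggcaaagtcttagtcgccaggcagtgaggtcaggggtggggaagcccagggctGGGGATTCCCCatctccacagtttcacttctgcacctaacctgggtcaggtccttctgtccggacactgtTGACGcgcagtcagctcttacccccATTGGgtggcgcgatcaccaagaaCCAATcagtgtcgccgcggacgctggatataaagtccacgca
H2-D1, chr17:35262844-35263143, plus strand: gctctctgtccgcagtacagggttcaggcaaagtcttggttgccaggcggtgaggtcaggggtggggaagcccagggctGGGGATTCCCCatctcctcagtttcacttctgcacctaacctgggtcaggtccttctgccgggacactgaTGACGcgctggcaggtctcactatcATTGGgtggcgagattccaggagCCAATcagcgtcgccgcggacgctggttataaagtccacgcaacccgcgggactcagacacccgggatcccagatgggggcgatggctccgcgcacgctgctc
Tap1, chr17:34187306-34187605, plus strand: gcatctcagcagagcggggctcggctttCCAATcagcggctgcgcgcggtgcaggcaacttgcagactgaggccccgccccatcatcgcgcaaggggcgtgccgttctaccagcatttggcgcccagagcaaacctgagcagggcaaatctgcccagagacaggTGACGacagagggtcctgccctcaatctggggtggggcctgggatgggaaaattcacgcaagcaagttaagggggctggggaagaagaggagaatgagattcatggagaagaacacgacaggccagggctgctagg
Psmb8, chr17:34197945-34198244, plus strand: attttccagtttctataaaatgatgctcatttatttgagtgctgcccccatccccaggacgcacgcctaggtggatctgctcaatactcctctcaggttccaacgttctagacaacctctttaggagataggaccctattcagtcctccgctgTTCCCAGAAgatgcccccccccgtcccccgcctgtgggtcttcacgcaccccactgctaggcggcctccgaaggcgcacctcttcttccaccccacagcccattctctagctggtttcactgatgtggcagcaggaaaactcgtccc

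The windows of the chain genes were alike in layout. B2m, H2-K1 and H2-D1 each held an NF-kB match upstream of a CRE core and of at least 1 CCAAT match, at starts of -126, -78 and -53 relative to the transcript start in B2m and at -111, -41 and -16 in H2-K1. H2-K1 had a further CCAAT match at 8. In H2-D1 the NF-kB match began at -171, the CRE core at -101 and the CCAAT matches at -76 and -53. Positions depend on the start used, since from a second annotated start of H2-K1 the same sites began at -125, -55, -30 and -6. The longest stretch that the H2-K1 and H2-D1 windows share letter for letter was 47 bases. The response element core was found in 1 of the 8 genes, B2m at -139, and in 3.44% of all 32851 mouse windows of this length. Only the exact form given above was searched, so windows without a match, such as those of H2-K1 and H2-D1, may still hold a variant of the element. The GAS motif was found in 1 of the 8, Psmb8 at -97, and in 8.3% of all windows. A CCAAT match was found in 6 of the 8 genes and in 37.4% of all windows, a CRE core in 5 of the 8 and in 20.8%, and an NF-kB match in 3 of the 8 and in 8.46%. Tap1 and Psmb9, which are read in opposite directions, share 275 of the 300 bases of their windows, so that the Tap1 sequence above, read on the other strand, is also nearly all of the Psmb9 window. The CCAAT and CRE matches of Tap1 and Psmb9 are the same sites, counted once for each gene. The H2-K1 and H2-D1 windows are also alike, so the counts above are not of independent windows. A match is a description of letters and was not tested for binding.

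**Figure D1:**
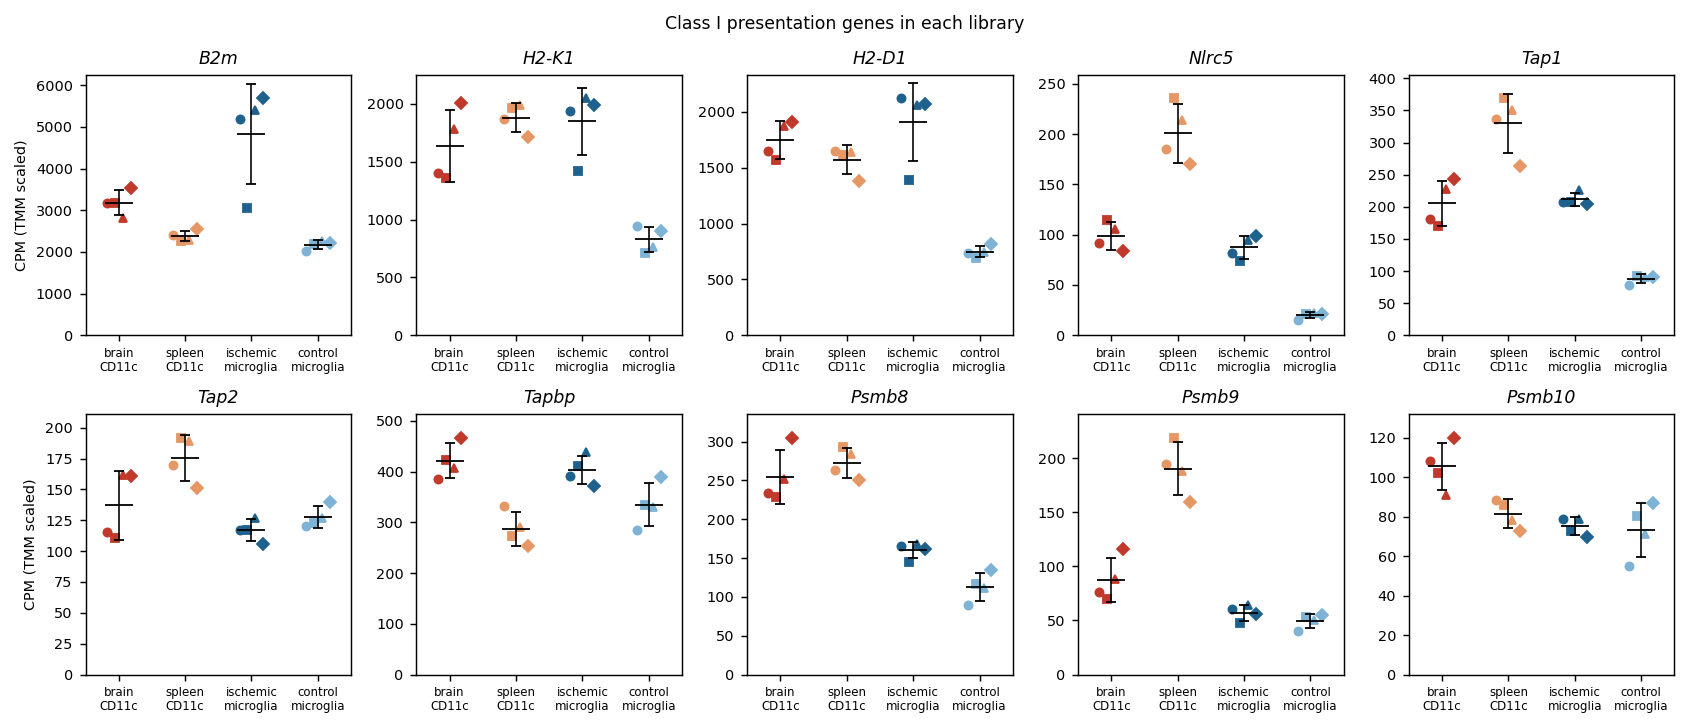
Level of each class I gene in every library, in CPM scaled by TMM factors (vertical axes from 0). Circles, squares, triangles and diamonds are replicates 1 to 4, and black bars give the mean and SD of 4 libraries. Nlrc5 stood at 74.1 to 98.8 CPM in ischemic microglia, all above the 15.6 to 21.7 CPM of control microglia, while Tap2 overlapped between these groups.

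In microglia of the ischemic hemisphere, the transactivator Nlrc5, the chains of the class I molecule and the pump subunit Tap1 were all higher than in control microglia, and most of the remaining assembly and cutting genes did not pass the test. Nlrc5 was 4.39-fold higher, H2-D1 2.55-fold, Tap1 2.40-fold, H2-K1 2.23-fold and B2m 2.22-fold, while Psmb8 was 1.42-fold higher. Tap2, Tapbp, Psmb9 and Psmb10 did not pass. The comparison asks how microglia of the injured hemisphere differ from microglia of control brain. Of the 10 genes 6 rose and 0 fell, where 17.7% of all 16345 tested genes were higher and 18% lower at an adjusted p under 0.05 in edgeR's quasi-likelihood test with Benjamini-Hochberg adjustment. The same 6 genes had no overlap between the groups, which held for 19.9% of all tested genes in the higher direction. The median log2 change of the 10 genes was 0.83, and that of all tested genes was -0.05.

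Nlrc5 had 81.6, 74.1, 95.04 and 98.8 CPM in the 4 libraries of ischemic microglia, against 15.6, 21.1, 21.7 and 21.1 CPM in control microglia. The groups lay far apart, and the log2 change was 2.14 ± 0.15 (SE; edgeR adjusted p = 5.49e-08). B2m had 5188, 3057, 5403 and 5688 CPM in ischemic microglia, against 2019.6, 2194, 2267 and 2218 CPM in control microglia. Every ischemic library was above every control library, but replicate 2 stood well below the other 3. The log2 change of B2m was 1.15 ± 0.16 (edgeR adjusted p = 5.9e-05), and it was 1.31 without that replicate.

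The heavy chains showed the same low library. H2-D1 had 2123, 1389.7, 2059.8 and 2075 CPM in ischemic microglia, against 732, 696, 746 and 819.9 CPM in control microglia. H2-K1 had 1939.9, 1416, 2049 and 1992 CPM in ischemic microglia, against 940.3, 708, 766 and 898 CPM in control microglia. In both genes the groups did not overlap and replicate 2 was the lowest ischemic library. The log2 change was 1.35 ± 0.14 for H2-D1 (edgeR adjusted p = 2.98e-06) and 1.16 ± 0.15 for H2-K1 (edgeR adjusted p = 3.96e-05), and without replicate 2 these were 1.47 and 1.26. In that library the microglia markers summed to 23989 CPM, against 32679 to 33956 CPM in the other 3, and the part of this difference in the chain values was not tested.

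The pump subunits and tapasin parted ways. Tap1 had 208, 207, 227 and 204 CPM in ischemic microglia, against 78.5, 92.0, 91.0 and 91.3 CPM in control microglia, with a log2 change of 1.26 ± 0.13 (edgeR adjusted p = 2.63e-06). Its partner Tap2 had 117, 117, 127 and 106 CPM in ischemic microglia, against 120.1, 123, 127 and 140.2 CPM in control microglia. The groups of Tap2 overlapped, and its log2 difference of -0.12 had a 95% interval of -0.37 to 0.13 (edgeR adjusted p = 0.482), which leaves out a change of the size seen in Tap1. Tapbp had 391, 411, 438 and 372 CPM in ischemic microglia, against 285, 333, 331 and 389.9 CPM in control microglia, with a log2 difference of 0.27 ± 0.11 (edgeR adjusted p = 0.072). It passed with DESeq2, in the fit of the compared groups alone and without control microglia replicate 4. Per kilobase of annotated exon, the level of Tap1 over that of Tap2 was 1.25 ± 0.05 in ischemic microglia and 0.479 ± 0.034 in control microglia (SD, n = 4 libraries each). On this scale, which depends on the exon lengths used, Tap1 stood above Tap2 in ischemic microglia and below it in control microglia. The ratios did not overlap, at 1.22 to 1.33 in ischemic and 0.45 to 0.518 in control microglia.

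Among the immunoproteasome genes, Psmb8 had 166, 145, 169 and 162 CPM in ischemic microglia, against 89.6, 116, 111 and 134 CPM in control microglia, with a log2 change of 0.51 ± 0.12 (edgeR adjusted p = 0.00404). Psmb9 had 60.3, 47.6, 64.7 and 55.9 CPM in ischemic microglia, against 40.5, 53.6, 50.3 and 54.9 CPM in control microglia. Psmb10 had 78.6, 72.7, 79.0 and 69.8 CPM in ischemic microglia, against 55.1, 80.1, 71.1 and 87.0 CPM in control microglia. Psmb8 alone of these 3 separated the groups. The log2 difference was 0.20 with a 95% interval of -0.10 to 0.50 for Psmb9 (edgeR adjusted p = 0.339) and 0.03, or -0.11 with library totals, with an interval of -0.21 to 0.28 for Psmb10 (edgeR adjusted p = 0.872). Tap1 and Psmb9 share most of a promoter window, and the per-length level of Tap1 over that of Psmb9 was 2.5 ± 0.28 in ischemic microglia and 1.19 ± 0.08 in control microglia. This ratio did not overlap between the groups, at 2.31 to 2.9 in ischemic and 1.11 to 1.3 in control microglia.

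**Figure D2:**
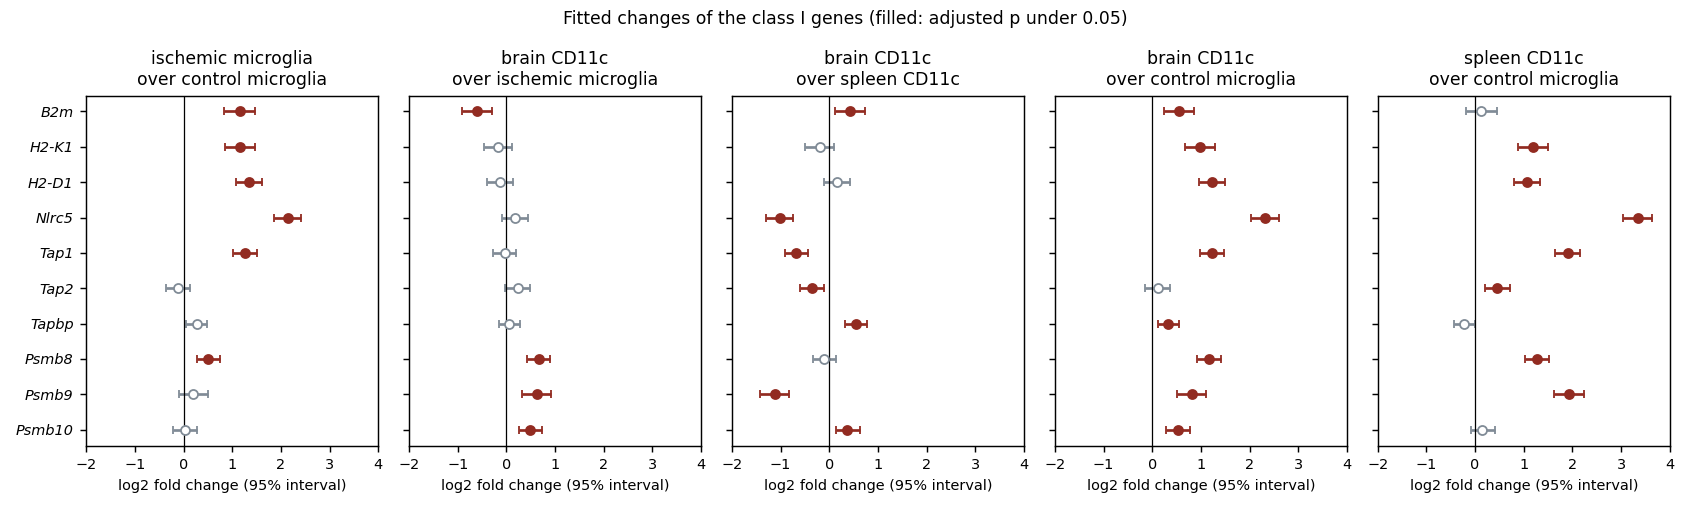
Fitted log2 fold change of each class I gene in 5 comparisons (horizontal axes), with its approximate 95% interval. Filled points passed at an adjusted p under 0.05 and open points did not. In ischemic over control microglia the filled points run from 0.51 (Psmb8) to 2.14 (Nlrc5), and in brain CD11c cells over ischemic microglia from -0.61 (B2m) to 0.67 (Psmb8).

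Other heavy chains and the standard proteasome also moved in ischemic microglia. Of 17 tested genes of other class I and class I-like heavy chains 11 rose and 1 fell, with a median log2 change of 1.00, beside -0.05 for all tested genes. H2-Q7, a non-classical chain, averaged 113 ± 28.6 CPM in ischemic microglia and 24.3 ± 11.7 CPM in control microglia (SD, n = 4 each), a log2 change of 2.22 ± 0.30 (edgeR adjusted p = 5.13e-05), but it is among the related genes named above, whose counts are uncertain. Cd1d1, which presents lipids, was the gene that fell, with 4.996 ± 0.401 CPM in ischemic and 10.1 ± 0.9 CPM in control microglia. Of 14 other subunits of the 20S proteasome core 11 rose and 1 fell, and Psmb6, the subunit that Psmb9 replaces, averaged 142 ± 16 CPM in ischemic microglia and 71.9 ± 5.3 CPM in control microglia, a log2 change of 0.98 ± 0.13 (edgeR adjusted p = 3.54e-05). Psmb7, the counterpart of Psmb10, rose by 0.60 ± 0.13 on the log2 scale. Psmb5, the counterpart of Psmb8, differed by 0.37 ± 0.18 and did not pass (edgeR adjusted p = 0.125).

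The activator and regulator lists were mixed. Psme1 and Psme2, which encode the PA28 cap of the immunoproteasome, rose by 0.79 ± 0.13 and 0.93 ± 0.10 on the log2 scale, among 6 of 10 tested activator and assembly genes that rose and 0 that fell. Of 18 tested genes of the 19S regulatory particle 5 rose and 0 fell, and of 16 tested loading and trimming genes 3 rose and 0 fell. With library totals 3 activator and assembly genes rose and 3 fell, and 2 genes of the 19S particle rose. With 1 library left out, any but ischemic replicate 3, the 19S count was 2 or 3, and with the compared groups alone 10 of the 19S genes and 7 of the loading genes rose. Of 32 tested regulators 9 rose and 6 fell. Irf7, an interferon regulatory factor, averaged 216 ± 24 CPM in ischemic microglia and 26.3 ± 8.9 CPM in control microglia. It passed, at a log2 change of 3.04 ± 0.25. Irf1 did not pass, with 357 ± 110 CPM in ischemic and 269 ± 77 CPM in control microglia (edgeR adjusted p = 0.262). Ciita, the transactivator of class II genes and a relative of Nlrc5, fell to 1.40 ± 0.81 CPM in ischemic microglia, against 6.66 ± 2.83 CPM in control microglia. In the same comparison Cd209a, a dendritic cell marker, averaged 2.04 ± 1.54 CPM in ischemic and 24.1 ± 6.7 CPM in control microglia, and Mrc1, a border macrophage marker, 251 ± 14 CPM in ischemic and 483 ± 129 CPM in control microglia. Other markers of the same lists went the other way. Itgax averaged 77.2 ± 28.0 CPM in ischemic and 30.4 ± 3.9 CPM in control microglia, and Siglec1 172 ± 25 CPM in ischemic and 52.0 ± 14.9 CPM in control microglia. The summed markers of dendritic cells were 57.4 to 118 CPM in ischemic and 63.6 to 93.3 CPM in control microglia, with 6 and 8 of 10 averaging 1 CPM or more, and those of border macrophages 572 to 697 CPM in ischemic and 468 to 953 CPM in control microglia, with 7 of 7 in both. Monocyte markers summed to 147 to 204 CPM in ischemic and 127 to 247 CPM in control microglia, and the part of these cells was not tested.

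**Figure D3:**
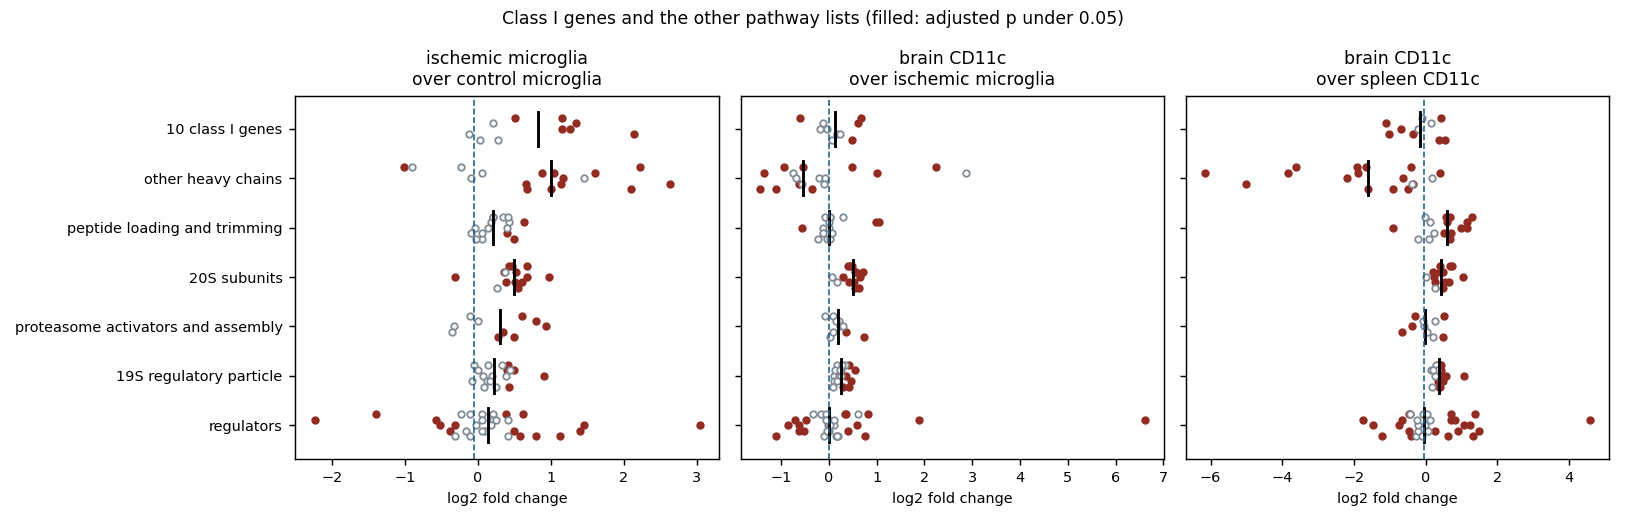
Log2 fold changes of the 10 class I genes and of the tested genes of 6 further pathway lists in 3 comparisons. Each point is a gene, filled where its adjusted p was under 0.05, the black bar is the median of the list, and the dashed line is the median of all tested genes. The 10 genes have medians of 0.83, 0.12 and -0.15 from left to right, and the 20S subunits of 0.49, 0.51 and 0.44.

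CD11c cells of the ischemic brain carried more of all 3 immunoproteasome genes than microglia of the same kind of tissue, less B2m, and heavy chain, Nlrc5 and Tap levels that did not pass the test. Psmb8 was higher by 0.67 ± 0.12 on the log2 scale, Psmb9 by 0.62 ± 0.15 and Psmb10 by 0.49 ± 0.13 (edgeR adjusted p = 0.000356, 0.00448 and 0.00525). B2m was lower, at -0.61 ± 0.16 (edgeR adjusted p = 0.00622). This is the comparison that the design text of the series names, of infiltrating CD11c cells with microglia, and it shares the ischemic microglia libraries with the comparison above. Of the 10 genes 3 were higher and 1 lower, where 19.7% of all tested genes were higher and 19.1% lower, and the median log2 difference was 0.12 for the 10 genes and 0.00 for all tested genes.

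Psmb8 had 234, 228, 251 and 305 CPM in brain CD11c cells, against 166, 145, 169 and 162 CPM in ischemic microglia. Psmb9 had 76.7, 69.5, 88.3 and 116 CPM in brain CD11c cells, against 60.3, 47.6, 64.7 and 55.9 CPM in ischemic microglia. Psmb10 had 108, 102, 91.1 and 120.03 CPM in brain CD11c cells, against 78.6, 72.7, 79.0 and 69.8 CPM in ischemic microglia. Each of the 3 genes was above ischemic microglia in all 4 brain CD11c libraries, a separation that held for 14.9% of all tested genes in this direction. For Psmb9 the difference rested more on replicates 3 and 4. With replicates 3 and 4 alone it was 0.85, and with replicates 1 and 2 alone it was 0.35 and did not pass (edgeR adjusted p = 0.0619).

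B2m had 3178, 3171, 2809 and 3546 CPM in brain CD11c cells, against 5188, 3057, 5403 and 5688 CPM in ischemic microglia. The groups overlapped only through the low ischemic replicate 2, and without that library the difference was -0.76 (edgeR adjusted p = 7.74e-05). The heavy chains lay closer together. H2-K1 had 1402, 1358, 1782 and 2006 CPM in brain CD11c cells, against 1939.9, 1416, 2049 and 1992 CPM in ischemic microglia, and its log2 difference of -0.18 had a 95% interval of -0.47 to 0.12 (edgeR adjusted p = 0.391). H2-D1 had 1647, 1566, 1877 and 1913 CPM in brain CD11c cells, against 2123, 1389.7, 2059.8 and 2075 CPM in ischemic microglia, with a difference of -0.13 and an interval of -0.39 to 0.14 (edgeR adjusted p = 0.493). H2-K1 split with the library titles, since it was lower at -0.42 in brain CD11c replicates 1 and 2 alone (edgeR adjusted p = 0.0418) and stood at 0.05 in replicates 3 and 4 alone.

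Nlrc5 had 91.3, 115, 106 and 84.0 CPM in brain CD11c cells, against 81.6, 74.1, 95.04 and 98.8 CPM in ischemic microglia, and its difference of 0.18 had an interval of -0.09 to 0.45 (edgeR adjusted p = 0.328). Tap1 had 182, 171, 227 and 243 CPM in brain CD11c cells, against 208, 207, 227 and 204 CPM in ischemic microglia, with a difference of -0.04, or 0.08 with library totals, and an interval of -0.28 to 0.20 (edgeR adjusted p = 0.843). For Tap1 replicates 1 and 2 alone gave -0.26 and replicates 3 and 4 alone 0.17, neither of which passed. Both genes overlapped between these groups. Tap2 had 115, 111, 162 and 161 CPM in brain CD11c cells, against 117, 117, 127 and 106 CPM in ischemic microglia. Its 4 brain CD11c libraries formed the pairs that the titles mark, and its difference was 0.23 over all 4 (edgeR adjusted p = 0.169), -0.05 in replicates 1 and 2 alone and 0.48 in replicates 3 and 4 alone (edgeR adjusted p = 0.00253). Tapbp had 386, 424, 407 and 467 CPM in brain CD11c cells, against 391, 411, 438 and 372 CPM in ischemic microglia, a difference of 0.06 with an interval of -0.16 to 0.28. The dendritic cell markers of the brain CD11c libraries followed the same split, with sums of 1003 and 1439.8 CPM in replicates 1 and 2 and 2204 and 2278 CPM in replicates 3 and 4, as did those of border macrophages, with 483 and 491 CPM in replicates 1 and 2 and 181 and 202 CPM in replicates 3 and 4. Monocyte markers, of which 6 of 6 averaged 1 CPM or more in brain CD11c cells and 3 of 6 in ischemic microglia, summed to 1113 to 1749 CPM in brain CD11c cells and 147 to 204 CPM in ischemic microglia. Microglia markers summed to 10592 to 11432 CPM in brain CD11c cells, above the sums of the other markers given here, and to 23989 to 33956 CPM in ischemic microglia. The part of these markers in the differences, or in their absence, was not tested.

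The standard subunits were higher too in brain CD11c cells. Of the 14 other 20S subunits 12 were higher than in ischemic microglia and 0 lower, with a median log2 difference of 0.51, and of 18 tested 19S genes 6 were higher and 0 lower. The number of higher 20S subunits was 14 with brain CD11c replicates 1 and 2 alone and 9 with replicates 3 and 4 alone, and that of higher 19S genes 17 and 1. Psmb5 had 24.9, 21.2, 14.4 and 11.7 CPM in brain CD11c cells, against 12.0, 12.3, 12.9 and 11.5 CPM in ischemic microglia, and passed at 0.57 ± 0.18 (edgeR adjusted p = 0.0203). Its call rested on replicates 1 and 2, since the difference was 0.92 in these alone and 0.11 in replicates 3 and 4 alone (edgeR adjusted p = 1.86e-05 and 0.538), and it was lost without replicate 1 or replicate 2 (edgeR adjusted p = 0.0734 and 0.0529). Psmb6 at 0.06 ± 0.13 and Psmb7 at 0.18 ± 0.13 did not pass over all 4 libraries, but did with replicates 1 and 2 alone, at 0.28 and 0.42 (edgeR adjusted p = 0.0423 and 0.00112), against -0.19 and -0.09 with replicates 3 and 4 alone. Of 17 tested further heavy chains 3 were higher and 7 lower, with 4 lower under library totals, 0 higher with replicates 1 and 2 alone and 3 lower with replicates 3 and 4 alone. H2-T24 averaged 27.3 ± 7.9 CPM in brain CD11c cells and 73.9 ± 16.2 CPM in ischemic microglia, and Mr1, which presents microbial vitamin metabolites, 22.04 ± 2.33 CPM in brain CD11c cells and 56.2 ± 12.6 CPM in ischemic microglia. Of the 32 regulators 8 were higher and 7 lower. Ciita averaged 137 ± 59 CPM in brain CD11c cells and 1.40 ± 0.81 CPM in ischemic microglia, a log2 difference of 6.61 ± 0.52 (edgeR adjusted p = 1.21e-07). Irf1 was lower, at 167 ± 67 CPM in brain CD11c cells and 357 ± 110 CPM in ischemic microglia, but did not pass with replicates 3 and 4 alone (edgeR adjusted p = 0.0605). Among 16 loading and trimming genes 2 were higher and 1 lower, but 5 were higher with replicates 1 and 2 alone and 7 lower with replicates 3 and 4 alone, and among 10 activator and assembly genes 2 were higher and 0 lower.

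Set against CD11c cells of the spleen, brain CD11c cells had less Psmb9, Nlrc5 and Tap1, and more Tapbp. The comparison shares its brain CD11c libraries with the one above. Psmb9 differed by -1.12 ± 0.15 on the log2 scale, Nlrc5 by -1.02 ± 0.14 and Tap1 by -0.68 ± 0.12 (edgeR adjusted p = 9.35e-06, 8.71e-06 and 0.000155). Tapbp was higher, at 0.55 ± 0.11 (edgeR adjusted p = 0.000421). B2m at 0.42 ± 0.16, Psmb10 at 0.37 ± 0.12 and Tap2 at -0.36 ± 0.13 passed as well (edgeR adjusted p = 0.0294, 0.0156 and 0.022), while H2-K1, H2-D1 and Psmb8 did not. In all, 3 of the 10 genes were higher and 4 lower, where 31.2% of all tested genes were higher and 33% lower. The median was -0.15 for the 10 genes and -0.04 for all tested genes.

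The higher calls depended on the scaling of the libraries. With library totals alone, which moved the median of all tested genes to -0.302, 0 of the 10 genes were higher and 6 were lower, with H2-K1 at -0.46 and Psmb8 at -0.37 now passing (edgeR adjusted p = 0.0226 and 0.027), and Tapbp stood at 0.28 (edgeR adjusted p = 0.0617). B2m also lost its call without any 1 of brain CD11c replicates 1, 2 and 4 or spleen replicates 1, 2 and 3 (edgeR adjusted p of 0.0509 to 0.0699). Tap2 lost its call without brain CD11c replicate 1 or 2 or spleen replicate 2 or 3 (edgeR adjusted p of 0.0513 to 0.0686), with no filter on low counts and with the compared groups alone (edgeR adjusted p = 0.0599 and 0.0993), and Psmb10 without spleen replicate 4 (0.32, edgeR adjusted p = 0.0522). Tap2 was -0.63 with brain CD11c replicates 1 and 2 alone (edgeR adjusted p = 0.00014) and -0.15 with replicates 3 and 4 alone (edgeR adjusted p = 0.232). Psmb10 was 0.37 and 0.34 with these pairs (edgeR adjusted p = 0.0291 and 0.0635), and B2m, at 0.42 and 0.38, passed with neither (edgeR adjusted p = 0.057 and 0.1). Psmb9, Nlrc5 and Tap1 were lower under every setting run. Beside these results stand the markers of other cells in the spleen libraries: B cell markers at 12.2 to 19.5 CPM in brain CD11c cells and 2532 to 3288 CPM in spleen CD11c cells, and T cell markers at 13.8 to 26.2 CPM in brain CD11c cells and 294 to 564 CPM in spleen CD11c cells. Neutrophil markers summed to 7.02 to 26.9 CPM in brain CD11c cells and 202 to 885 CPM in spleen CD11c cells, and erythroid markers to 0.127 to 1.15 CPM in brain CD11c cells and 52.9 to 3540 CPM in spleen CD11c cells. Of 7 B cell markers 3 averaged 1 CPM or more in brain CD11c cells and 7 in spleen CD11c cells. Of 10 T cell markers 7 did so in brain CD11c cells and 10 in spleen CD11c cells, and 0 of either list was at 0 in all libraries of either group. In the other direction, microglia markers summed to 10592 to 11432 CPM in brain CD11c cells and 225 to 319 CPM in spleen CD11c cells. The part of all these markers in the differences was not tested.

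Psmb9 had 76.7, 69.5, 88.3 and 116 CPM in brain CD11c cells, against 195, 219, 189 and 159 CPM in spleen CD11c cells. Nlrc5 had 91.3, 115, 106 and 84.0 CPM in brain CD11c cells, against 185, 236, 214 and 170.0 CPM in spleen CD11c cells. Tap1 had 182, 171, 227 and 243 CPM in brain CD11c cells, against 337, 369, 350.2 and 263 CPM in spleen CD11c cells. These 3 genes lay below the spleen in all 4 brain libraries, as did 29.9% of all tested genes. Tapbp had 386, 424, 407 and 467 CPM in brain CD11c cells, against 332, 273, 291 and 253 CPM in spleen CD11c cells. B2m had 3178, 3171, 2809 and 3546 CPM in brain CD11c cells, against 2399, 2268, 2294 and 2549 CPM in spleen CD11c cells. Psmb10 had 108, 102, 91.1 and 120.03 CPM in brain CD11c cells, against 88.6, 86.1, 78.2 and 72.8 CPM in spleen CD11c cells. These 3 genes lay above the spleen in all 4 brain libraries, as did 25.3% of all tested genes.

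Groups overlapped in Tap2, which passed, and in H2-K1, H2-D1 and Psmb8, which did not. Tap2 had 115, 111, 162 and 161 CPM in brain CD11c cells, against 169.8, 192, 189 and 151 CPM in spleen CD11c cells. H2-K1 had 1402, 1358, 1782 and 2006 CPM in brain CD11c cells, against 1865, 1960.1, 1987 and 1710.4 CPM in spleen CD11c cells, and its difference of -0.20 had a 95% interval of -0.50 to 0.10, while brain replicates 1 and 2 alone gave -0.44 (edgeR adjusted p = 0.0218) and replicates 3 and 4 alone -0.02. H2-D1 had 1647, 1566, 1877 and 1913 CPM in brain CD11c cells, against 1654, 1614, 1638 and 1378 CPM in spleen CD11c cells, with a difference of 0.16, or -0.11 with library totals, and an interval of -0.11 to 0.42. In these 3 genes brain and spleen values interleaved. Psmb8 had 234, 228, 251 and 305 CPM in brain CD11c cells, against 263, 293, 284 and 250.5 CPM in spleen CD11c cells, a difference of -0.10 with an interval of -0.34 to 0.14. Replicate 4 of the spleen, the lowest there in 9 of these 10 genes, held the highest neutrophil markers, 885 CPM against 202 to 425 CPM in the other 3 spleen libraries. It also held the lowest dendritic cell markers, 962 CPM against 1450 to 1967 CPM, and the lowest T cell markers, 294 CPM against 454 to 564 CPM, and the part of these cells was not tested.

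In the other lists, most 20S, 19S and peptide-loading genes were higher in brain than in spleen CD11c cells with TMM factors, and most further heavy chains were lower. Of the 14 other 20S subunits 12 were higher and 0 lower, with Psmb6 at 148 ± 31 CPM in brain and 71.4 ± 3.7 CPM in spleen CD11c cells, a log2 difference of 1.05 ± 0.13 (edgeR adjusted p = 2.65e-06). Of 18 tested 19S genes 12 were higher and 0 lower. Of 16 loading and trimming genes 10 were higher and 1 lower, among them Hspa5, a chaperone of the endoplasmic reticulum, at 2042 ± 472 CPM in brain and 844 ± 191 CPM in spleen, and Calr, a chaperone of the peptide-loading complex, at 1608 ± 679 CPM in brain and 727 ± 168 CPM in spleen. Tapbpl, a relative of tapasin, was the gene that was lower, at 30.7 ± 1.7 CPM in brain and 57.9 ± 2.5 CPM in spleen. Of 17 further heavy chains 1 was higher and 14 lower, with H2-M2 at 1.23 ± 0.39 CPM in brain and 39.4 ± 14.2 CPM in spleen. Of the 32 regulators 12 were higher and 9 lower, with Socs3, a feedback inhibitor of cytokine signals, at 503 ± 94 CPM in brain and 20.8 ± 4.7 CPM in spleen. Ciita was lower at 137 ± 59 CPM in brain and 459 ± 74 CPM in spleen. Of 10 activator and assembly genes 2 were higher and 3 lower. Under library totals, 24 genes of these 6 lists together were higher and 40 lower, against 49 and 27 with TMM factors. The number of higher 20S subunits was then 5 and that of higher 19S genes 1, and with brain CD11c replicates 3 and 4 alone these were 6 and 2.

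Both CD11c populations stood above control microglia in most of the 10 genes. Against control microglia 9 of 10 genes were higher and 0 lower in brain CD11c cells, where 29.3% of all tested genes were higher and 29.6% lower. In spleen CD11c cells 7 were higher and 0 lower, where 37.1% of all tested genes were higher and 31.7% lower. The groups did not overlap in 8 genes in each comparison, a separation held by 22.7% of all tested genes in brain CD11c cells and 38.4% in spleen CD11c cells in this direction. Nlrc5 led in both, at 4.98-fold in brain and 10.1-fold in spleen CD11c cells. These comparisons share the control libraries with each other and with that of ischemic microglia, and the line, the population and the disease state or tissue change at once in them. The median log2 difference was 0.90 in brain CD11c cells and 1.12 in spleen CD11c cells over the 10 genes, and 0.00 and 0.11 over all tested genes.

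In brain CD11c cells the log2 difference from control microglia was 2.32 for Nlrc5, 1.23 for H2-D1, 1.22 for Tap1, 1.17 for Psmb8 and 0.98 for H2-K1. It was 0.81 for Psmb9, 0.55 for B2m, 0.52 for Psmb10 and 0.33 for Tapbp, with standard errors of 0.11 to 0.16 over all 10 genes. Tap2 did not pass, at 0.11 ± 0.13 (edgeR adjusted p = 0.494), but was higher at 0.34 with replicates 3 and 4 alone (edgeR adjusted p = 0.0154), against -0.17 with replicates 1 and 2 alone. Tapbp had the smallest difference of the 9, with libraries that overlapped and an edgeR adjusted p of 0.0179, or 0.0519 without control microglia replicate 1. Its call was also lost with library totals (0.30, edgeR adjusted p = 0.0558) and with brain CD11c replicates 1 and 2 alone (0.27, edgeR adjusted p = 0.0792), and held with replicates 3 and 4 alone (0.38, edgeR adjusted p = 0.0209). In spleen CD11c cells the difference was 3.34 for Nlrc5, 1.93 for Psmb9, 1.90 for Tap1, 1.27 for Psmb8, 1.18 for H2-K1, 1.07 for H2-D1 and 0.46 for Tap2, all of which passed. B2m did not pass there, at 0.13 ± 0.16 (edgeR adjusted p = 0.485), although its 4 spleen libraries lay just above the 4 control libraries. Psmb10 at 0.15 ± 0.12 and Tapbp at -0.22 ± 0.11, or 0.02 with library totals, did not pass either (edgeR adjusted p = 0.293 and 0.0899). Tapbp passed as lower without spleen CD11c replicate 1 (-0.29, edgeR adjusted p = 0.035). With library totals B2m at 0.36 and Psmb10 at 0.39 passed (edgeR adjusted p = 0.0479 and 0.0168).

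The order of the 4 groups differed from gene to gene. Control microglia had the lowest mean of 8 of the 10 genes, with Tap2 lowest in ischemic microglia and Tapbp lowest in spleen CD11c cells. Spleen CD11c cells had the highest mean of 6 genes, and ischemic microglia and brain CD11c cells of 2 each, B2m and H2-D1 in ischemic microglia and Tapbp and Psmb10 in brain CD11c cells. Nlrc5 had the widest spread of means, 10.1-fold from lowest to highest, with brain CD11c cells and ischemic microglia overlapping between the extremes. Psmb9 spanned 3.82-fold and Tap1 3.74-fold, while Tap2, Tapbp and Psmb10 spanned 1.5-fold, 1.47-fold and 1.44-fold. In Tap2 and Tapbp no neighbours in the order were separated beyond the spread of their libraries. Ischemic microglia and spleen CD11c cells differ in line, tissue and disease at once and were not tested against each other.

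Levels of different genes were compared per kilobase of annotated exon. That length joins all annotated exons of a gene and can exceed the transcript present, so comparisons between genes are approximate. On this scale B2m was the highest of the 10 in every group. It averaged 3693 CPM per kb in brain CD11c cells, 2764 in spleen CD11c cells, 5621 in ischemic microglia and 2529 in control microglia. Nlrc5 was the lowest in every group, at 11.7 CPM per kb in brain CD11c cells, 23.7 in spleen CD11c cells, 10.3 in ischemic microglia and 2.34 in control microglia. The heavy chains together, on that scale, were 0.337 ± 0.054 of B2m in brain CD11c cells and 0.454 ± 0.054 in spleen CD11c cells, against 0.249 ± 0.027 in ischemic microglia and 0.227 ± 0.027 in control microglia (SD, n = 4 libraries each). H2-K1 over H2-D1 was 0.816 ± 0.079 in brain CD11c cells and 1.05 ± 0.04 in spleen CD11c cells, against 0.853 ± 0.040 in ischemic microglia and 0.971 ± 0.109 in control microglia. The spleen libraries lay above the brain CD11c libraries in this ratio, at 0.99 to 1.09 in spleen, against 0.747 to 0.92 in brain. Tap1 over Tap2 was 1.04 ± 0.05 in brain CD11c cells and 1.29 ± 0.07 in spleen CD11c cells, against the 1.25 of ischemic and 0.479 of control microglia. Control microglia thus stood apart from the other 3 groups, in which Tap1 was near or above Tap2 on this scale.

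**Figure D4:**
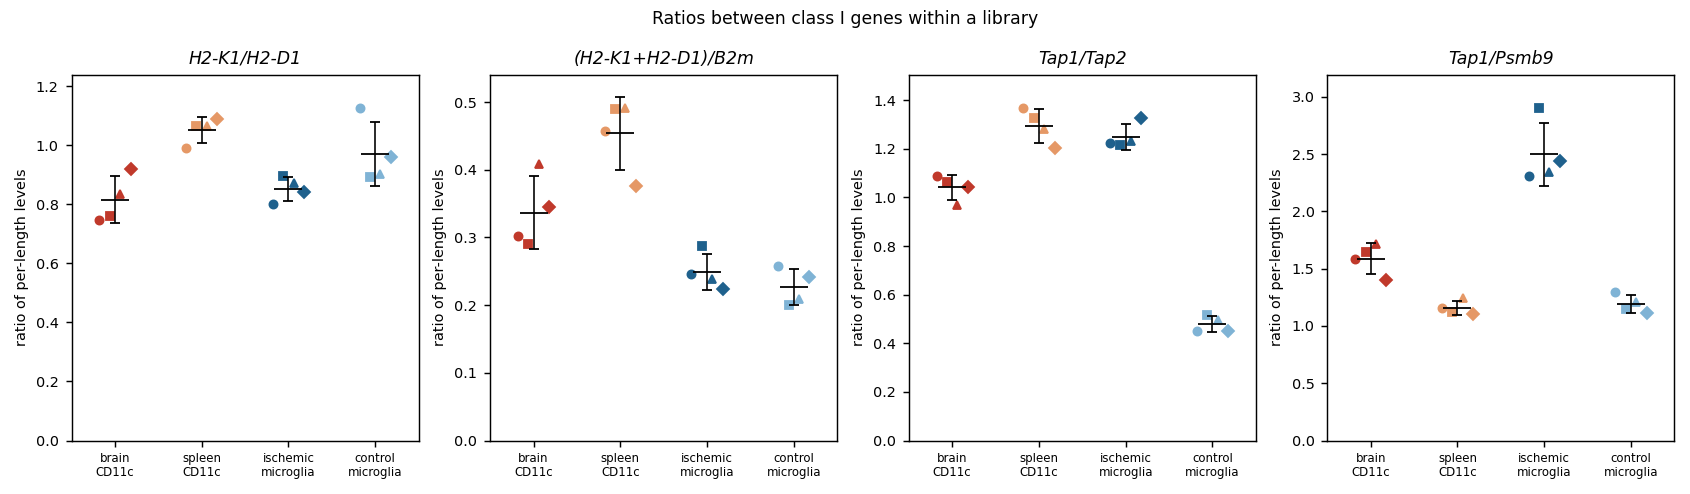
Ratios of per-length levels between class I genes within each library (vertical axes from 0), with the replicates, mean and SD marked as in the plot of levels by library. Tap1 over Tap2 was 0.45 to 0.518 in control microglia and 0.969 to 1.37 in the 12 libraries of the other groups, and Tap1 over Psmb9 was highest in ischemic microglia, at 2.31 to 2.9.

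The balance of immunoproteasome over standard subunits was read as the log2 ratio of counts within a library, which does not depend on library scaling. Psmb9 over Psmb6 lay lower in every library of ischemic microglia than in any of control microglia, and it was highest in spleen CD11c cells. It was -1.25, -1.24, -0.35 and -0.21 in brain CD11c cells and 1.53, 1.57, 1.45 and 1.08 in spleen CD11c cells. It was -1.27, -1.33, -1.19 and -1.48 in ischemic microglia and -0.73, -0.37, -0.52 and -0.53 in control microglia. Ischemic minus control microglia gave -0.78, brain minus spleen CD11c cells -2.17 and spleen CD11c cells minus control microglia 1.94, and in each of the 3 the groups did not overlap. Their exact permutation p was 0.0286, the smallest that 4 libraries against 4 can give (two-sided), and 0.0857 after Benjamini-Hochberg adjustment over the 15 ratio comparisons, so none passed.

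Psmb10 over Psmb7 was -0.12, -0.26, -0.12 and -0.47 in ischemic microglia and -0.08, 0.43, 0.30 and 0.58 in control microglia. All ischemic libraries lay below the controls, by -0.55 on average, with the same exact permutation p of 0.0286 and adjusted value of 0.0857. Psmb8 over Psmb5 was 3.79, 3.55, 3.70 and 3.81 in ischemic microglia and 3.48, 3.55, 3.51 and 3.75 in control microglia, which overlapped, with a difference of 0.14 (exact permutation p = 0.171, adjusted 0.321). It was 0.81 higher in spleen CD11c cells than in control microglia, the last of the 5 comparisons at the smallest possible p.

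In brain CD11c cells all 3 ratios followed the titles of the libraries. Psmb8 over Psmb5 was 3.23 and 3.43 in replicates 1 and 2 and 4.13 and 4.70 in replicates 3 and 4. Psmb10 over Psmb7 was -0.23 and -0.12 in replicates 1 and 2 and 0.33 and 0.38 in replicates 3 and 4. Brain CD11c cells minus ischemic microglia in Psmb9 over Psmb6 was 0.07 with replicates 1 and 2 alone and 1.04 with replicates 3 and 4 alone, against 0.56 over all 4 (exact permutation p = 0.114, adjusted 0.286). In Psmb8 over Psmb5 the sign differed between the pairs, at -0.39 and 0.70. Psmb5 itself counted low, at 18.0 ± 6.1 CPM in brain CD11c cells and 9.42 ± 0.92 CPM in control microglia.

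**Figure D5:**
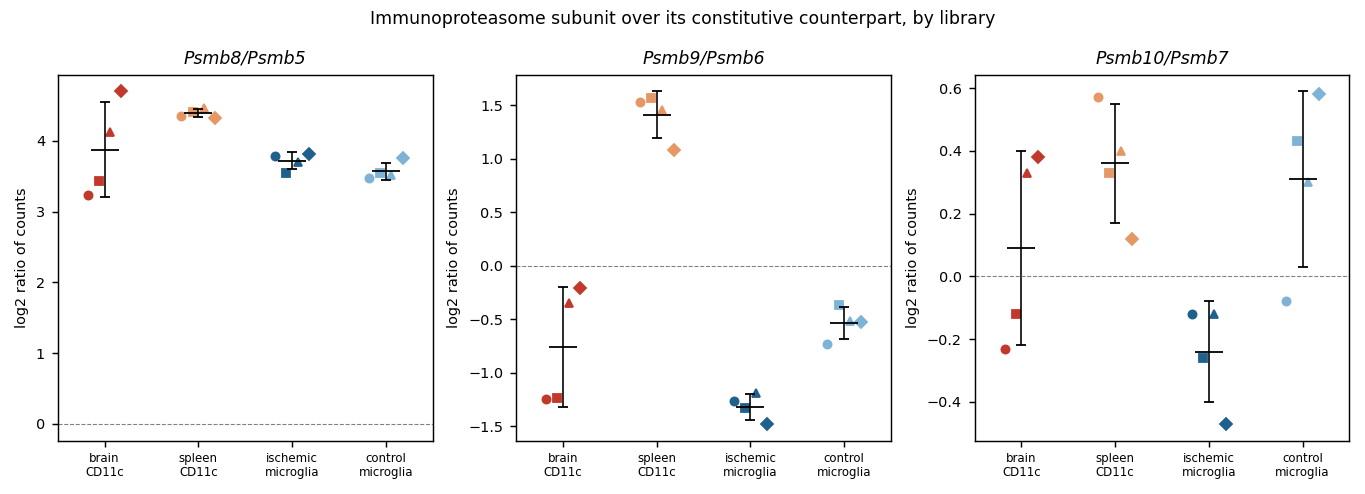
Log2 ratio of counts of each immunoproteasome gene over the standard gene it stands in for, by library (vertical axes), with replicates, mean and SD marked as in the plot of levels by library; the dashed line is an equal count. Psmb9 over Psmb6 was 1.08 to 1.57 in spleen CD11c cells and below 0 in all other libraries, and the brain CD11c libraries fall into 2 pairs.

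Within the set, the profiles over the 16 libraries that lay closest were those of H2-K1 and H2-D1, with a root mean square distance of 0.18 in log2 CPM, and the farthest were those of Nlrc5 and Tapbp, at 1.28. Tap1 and Psmb9, which share a promoter window, lay at 0.46, and Tap1 and Tap2, the subunits of the pump, at 0.59. Among all other genes with a mean of at least 20 CPM, the 8 closest to the mean profile of the 10 genes were Sp110 and Psme2 at 0.12, Rpl13a at 0.15, H2-T23 and Eif3m at 0.16, and Rps3a1, Rpl7 and Rpl4 at 0.17. Sp110 averaged 80.5 CPM in brain CD11c cells, 88.9 CPM in spleen CD11c cells, 74.5 CPM in ischemic microglia and 45.7 CPM in control microglia. Of these 8 genes 4 remained among the closest when only the 4 group means were used. The nearest gene to Tap1 outside the set was H2-T22, a non-classical heavy chain, at 0.16, and the nearest to B2m was Ly6e, at 0.21.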

How the data were processed

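RNA of sorted mouse cells was sequenced from polyA-selected, stranded libraries, per the labels' protocols. The authors deposited whole-number counts per gene for 16 libraries in 1 table. FastQC 0.11.5, STAR 2.5.3a and the GRCm38 build are named in the submitters' processing notes, while for the counting tool, its strand setting and its annotation there was no statement (not given in the sources used here). Gene names came from GENCODE M21, in which 224 of 50600 rows had no name. Columns were matched to samples by the names in the labels.

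From these counts, edgeR 4.0.16 in R 4.3.3 (filterByExpr, TMM factors, robust quasi-likelihood test, 1 coefficient per group, all 16 libraries) gave log2 fold changes, standard errors and two-sided p-values, adjusted over all 16345 tested genes by Benjamini-Hochberg. Intervals are approximate, at 1.96 standard errors each side, and can be narrower than the edgeR test implies. Like all errors here, they hold only for these libraries. The groups came from the labels, and replicate numbers in accession order only name libraries. No 2 replicates were alike within sampling noise (lowest chi-square per degree of freedom 9.41). The scripts were tested on simulated data. Subunit ratios used counts plus 0.5, compared by exact permutation tests in scipy 1.17.1. Levels per kilobase used the joined length of all annotated exons of a gene.

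The 10 genes, the 6 pathway lists and the marker lists were chosen with earlier results of these data known. All 10 genes are named. Of the lists, Psmb5, Psmb6, Psmb7, Psme1, Psme2, Irf1 and Ciita could be named always, 1 further gene being not reported here, and of the rest up to 3 called genes with the largest change in each direction per list and comparison. Of 112 list genes 110 were measured. Alternatives were RLE factors, library totals, no filter on low counts, DESeq2 1.42.0, limma-voom (limma 3.58.1), the compared groups alone, each library left out, each pair of brain CD11c libraries alone, and 10 counts added in the ratios.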

Additional observations from a re-analysis of the deposited data

Results flagged for a closer look

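Among 52 sets of 4 libraries checked, 4 held a library whose gap to the nearest other exceeded Dixon's 95% critical value as a share of the range, and chance alone gives about 1 in 20. H2-D1 was low in ischemic microglia replicate 2, at 1389.67 CPM, and in spleen CD11c replicate 4, at 1378.17 CPM. Nlrc5 at 15.6178 CPM and Tap1 at 78.539 CPM were low in control microglia replicate 1. That library was the lowest control library in 8 of the 10 genes. Its border macrophage markers summed to 468 CPM, against 873 to 953 CPM in the other control libraries. Its monocyte markers summed to 127 CPM, against 238 to 247 CPM in those libraries. The part of these cells in its low values was not tested.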

How the results depend on the processing

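Of 760 log2 values of the 10 genes under an alternative, 705 kept their direction and their side of the threshold, 24 lost a call, 15 gained one and 16 changed sign. All 16 sign changes were of values that did not pass the test. Of 152 counts of the 10 genes 146, and of 152 pathway counts 148, stayed within 1.5 times. All 153 ratio values stayed within the spread of their replicates or on their side of the test, but this says little. No ratio passed in the main run, and 3 libraries against 4 cannot give an exact permutation p below 0.0571, so no call could be gained there. The change of sign of Psmb8 over Psmb5 between the brain CD11c pairs was counted as unchanged. The cause was not tested for any change below.

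Library totals moved the median of all genes to -0.199 in ischemic over control microglia (-0.051 with TMM), to -0.302 in brain over spleen CD11c cells (-0.036 with TMM) and to 0.336 in spleen CD11c cells over control microglia (0.106 with TMM). With them, pathway genes lower in ischemic microglia numbered 15 in place of 8 (5 with no filter on low counts), and in brain over spleen CD11c cells 0 of the 10 genes in place of 3, and 24 pathway genes in place of 49, were higher. With brain CD11c replicates 3 and 4 alone these last counts were 1 and 30. With replicates 1 and 2 alone, 2 of the 10 genes in place of 1 were lower than in ischemic microglia. In spleen CD11c cells over control microglia, 1 of the 10 genes in place of 0 was lower with no filter and with the compared groups alone, and 0 to 1 with a library left out.

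Signs changed as follows. Library totals gave Psmb10 -0.11 in ischemic over control microglia, Tap1 0.08 in brain CD11c cells over ischemic microglia, H2-D1 -0.11 and Psme1 -0.00 in brain over spleen, and Tapbp 0.02 and Psmb6 0.22 in spleen over control microglia. Replicates 3 and 4 alone gave H2-K1 0.05, H2-D1 0.00, Tap1 0.17, Psmb6 -0.19 and Psmb7 -0.09 over ischemic microglia, and Psmb5 -0.03, Psmd1 -0.00 and Irf1 0.10 over spleen. Replicates 1 and 2 alone gave Tap2 -0.05 and Psme1 -0.00 over ischemic microglia and Tap2 -0.17 over control microglia. No filter gave Tapbp -0.00 and Psmb6 -0.01 over ischemic microglia. With a library left out, Psmb10 ran from -0.09 to 0.11 in ischemic over control microglia, Tap1 from -0.13 to 0.06 and Psmb6 from -0.04 to 0.17 in brain CD11c cells over ischemic microglia, and Psmb6 from -0.03 to 0.07 in spleen over control microglia.

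No paired analysis was possible because the compared groups share fewer than 2 numbers in their titles, the shared one being 11, which stands in the titles of a brain CD11c, a spleen CD11c and an ischemic microglia library. The brain and spleen CD11c libraries with this number are of 1 line and may come from the same animal, which the labels do not say. Depth was high for every member, so spread between 4 libraries, and for the ratios the smallest exact permutation p of 0.0286, set the limits.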
